A study of Mus musculus with 20 samples.

Results

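The genes of MHC class II presentation were examined in single-cell RNA-sequencing of mice that develop a disease like chronic lymphocytic leukemia. The members were fixed by name as 10 of the 31053 genes in the files. H2-Aa, H2-Ab1 and H2-Eb1 encode the chains of the class II molecules, and Cd74 encodes the invariant chain that binds them while they are made. H2-DMa, H2-DMb1 and H2-DMb2 encode the H2-M peptide exchanger, H2-Oa and H2-Ob encode its inhibitor H2-O, and Ciita encodes the transactivator that switches these genes on. Their levels were read in B cells, plasma cells, monocytes/macrophages and dendritic cells, and T cells and neutrophils gave the background.

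The data were 20 libraries of unselected live cells from 13 mice that were given no treatment and whose strain is labelled C57BL/6N, while the study's methods give a C57BL/6J background for the Eµ-TCL1 mice of the cross. There were 5 spleens of Eµ-PRMT5 mice, 4 of Eµ-TCL1 mice and 4 of Eµ-PRMT5/TCL1 mice, and lymph nodes came from 3 Eµ-TCL1 mice and from 4 Eµ-PRMT5/TCL1 mice, with both tissues taken from 7 of the mice. Eµ-PRMT5 mice carry a human PRMT5 cDNA, which encodes an arginine methyltransferase, Eµ-TCL1 mice carry the human oncogene TCL1, and Eµ-PRMT5/TCL1 mice carry both. No library came from a mouse without a transgene, so every comparison was between transgenic mice. Both transgenes are driven by a VH promoter and the immunoglobulin heavy chain enhancer, which act in B cells. Plasma cells descend from B cells, and whether they expressed a transgene or belonged to the diseased clone was not tested. Monocytes/macrophages, dendritic cells, T cells and neutrophils were taken as those of the diseased host. Tissues were taken when a mouse met the criteria for euthanasia, the nodes were sub-mandibular, and ages are not in the labels. The Eµ-PRMT5 mice characterized in full came from 1 founder line. The title of Eµ-PRMT5 spleen 3 begins with the name of a founder, which no other title does, and the line behind each of the 5 spleens was not worked out from the labels. Replicates were separate mice of 1 group and are numbered as in the labels. The name of the mouse behind Eµ-PRMT5/TCL1 spleen 1 and lymph node 2 ends in RT, as no other does, and the labels do not explain it.

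Class II molecules are pairs of an α and a β chain that carry peptides from endosomes to the surface of antigen-presenting cells, where CD4+ T cells read them. The invariant chain fills the groove until proteases cut it away, H2-M then trades the remaining fragment for a peptide, and H2-O holds H2-M back, mainly in B cells. Ciita has no DNA-binding activity of its own and acts through the RFX, CREB and NF-Y factors on the X and Y boxes of class II promoters. Ciita has several promoters whose use differs between cell types, and plasma cells are known to silence it. C57BL/6 mice lack a working Eα chain, so H2-Eb1 RNA in them has no partner for a surface molecule.

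The promoters are shown because these genes answer to 1 transactivator and the results turn on members that did not move together. In GRCm38, 8 of the 10 members lie on chromosome 17, from H2-Oa (chr17:34092340-34095234) to H2-Eb1 (chr17:34305867-34316674), and Ciita lies at chr16:10480059-10528418. RefSeq promoters (GRCm38.p6) were at hand for 7 members. Each line holds the 80 bases from 110 to 31 bases before the annotated start, 5′ to 3′ along the gene's strand, with GATTGG (the core of the Y box, read by NF-Y) and GCAAC (within the X box, read by RFX) in capitals. The windows are those of H2-Aa (chr17:34287854-34287933, minus strand), H2-Eb1 (chr17:34305757-34305836, plus strand), H2-Oa (chr17:34092269-34092348, plus strand), H2-Ob (chr17:34238795-34238874, plus strand), H2-DMb1 (chr17:34153081-34153160, plus strand) and H2-DMb2 (chr17:34145139-34145218, plus strand).
H2-Aa: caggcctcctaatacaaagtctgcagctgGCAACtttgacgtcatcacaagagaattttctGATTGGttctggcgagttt
H2-Eb1: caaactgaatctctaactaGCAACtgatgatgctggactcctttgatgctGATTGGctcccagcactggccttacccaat
H2-Oa: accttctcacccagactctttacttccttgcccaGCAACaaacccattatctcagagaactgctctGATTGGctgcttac
H2-Ob: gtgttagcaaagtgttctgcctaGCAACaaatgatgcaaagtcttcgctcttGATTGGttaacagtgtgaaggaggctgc
H2-DMb1: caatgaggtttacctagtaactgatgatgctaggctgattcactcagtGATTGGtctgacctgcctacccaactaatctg
H2-DMb2: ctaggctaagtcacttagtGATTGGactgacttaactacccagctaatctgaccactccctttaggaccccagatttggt

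GCAAC stood 10 to 30 bases before GATTGG in 4 of these promoters, those of H2-Aa, H2-Eb1, H2-Oa and H2-Ob. That arrangement was found in 0.317% of 32851 RefSeq promoters searched over the same 250 bases on both strands, against 14.6% that held GATTGG and 29.9% that held GCAAC at all. H2-DMb1 and H2-DMb2 held GATTGG at 62 and 91 bases before the start without GCAAC, and H2-DMa held it only in the second of its annotated promoters, 199 bases before the start. Only exact letters were sought, so a variant of the X box would be missed. The H2-DMb1 line holds gtaac before tgatgatgct, where the H2-Eb1 line holds GCAAC before the same letters. The H2-DMb2 line shows few bases before GATTGG, though 250 bases were searched. A match describes letters in a window and does not show a bound site, and the lack of a match does not show that a site is absent. H2-Ab1, Cd74 and Ciita had no entry.

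Library size ranged from 9348094 to 72440894 UMIs (unique molecular identifiers, 1 per captured RNA molecule) and 84231 cells were kept. Classes were called from raw counts of markers that include no class II gene, which gave 30891 B cells (194 to 5140 per library), 2337 plasma cells, 1268 monocytes/macrophages, 147 conventional dendritic cells and 64 plasmacytoid dendritic cells, with 19345 cells left unclassed. Against 6 markers per class that the calls did not use, all 6 were highest in their own class for B cells, 5 for plasma cells, 4 for monocytes/macrophages and 5 for conventional dendritic cells. Fcgr3 and Itgam were higher in neutrophils than in monocytes/macrophages, Irf4 was higher in B cells than in plasma cells, and Irf8 was higher in plasmacytoid dendritic cells. Pairs of libraries shared at most 67 cell barcodes. Levels are given as CPM (counts scaled to a common total), the gene's share of all UMIs of that class in a library scaled to 1000000 UMIs, immunoglobulin included.

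The B cells of Eµ-PRMT5 spleen 4 stood apart and are given before the comparisons. Fits below that leave this spleen out were read with its low values known, so they are no independent evidence. In 797 cells their B cell markers summed to 233 CPM, against at least 1016 CPM in each of the other 12 spleens. All 10 members were lower there than in any other spleen. The share of all genes beside this count, and beside the later counts for this spleen, is not given here. The counts alone therefore do not set the members apart. H2-Aa stood at 489.6 CPM against a median of 3885 CPM in the others (a ratio of 7.94), and Cd74 at 4681 against 17694 CPM (a ratio of 3.78). The widest ratio was that of H2-DMb2, 31, and the narrowest that of H2-DMb1, 2.27. Its droplets with 10 to 100 UMIs, taken as empty, held H2-Aa at 552 CPM, and for 9 of the 10 members the B cells were no higher than those droplets, with Cd74 (3419 CPM in droplets) the exception. Its 359 neutrophils, from the same suspension, were lower than its B cells in all 10 members, with H2-Aa at 36.4 CPM, H2-Eb1 at 18 CPM and H2-Ob at 0.622 CPM. Its 50 T cells were lower in 8 of 10, with H2-Aa at 199 CPM. H2-DMb1 was higher in the T cells (53.3 against 41.2 CPM in the B cells) and H2-DMa was nearly equal (53.3 against 53.2 CPM). H2-Aa, H2-Eb1 and H2-Ob in the B cells lay above either background class but under the empty droplets of that library.

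Of the 4029 cells kept in that library 2501 were left unclassed (62.1%), against 3.19 to 33.6% in the other spleens. Its 313 monocytes/macrophages held H2-Aa at 2791 CPM and H2-DMb1 at 466 CPM. The class I chains of its B cells differed less from the other 12 spleens than H2-Aa did. B2m was 948 CPM against a median of 1163 CPM (a ratio of 1.23) and within their range, while H2-K1 was 1029 against 2077 CPM (2.02) and H2-D1 1456 against 2287 CPM (1.57), both the lowest of the 13. Ighv12-3 gave 95.1% of their Ighv UMIs. That gene also led in Eµ-TCL1 spleen 2 (94.3%) and Eµ-TCL1 spleen 4 (99.2%), where H2-Aa stood at 5287 and 2609.9 CPM. The median B cell of Eµ-PRMT5 spleen 4 held 16741 UMIs, the most of the 20 libraries. The part of the low B cell markers and of the unclassed cells in these values was not tested.

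The ranges of the class II chains in B cells overlapped between the 3 spleen genotypes. In Eµ-PRMT5 spleens 1 to 5 the H2-Aa level was 6005, 3883, 6729.9, 489.6 and 3611 CPM. It was 3423, 5287, 3887 and 2609.9 CPM in Eµ-TCL1 spleens 1 to 4 and 2070.4, 4010.4, 3865 and 4952 CPM in Eµ-PRMT5/TCL1 spleens 1 to 4. Eµ-PRMT5 spleens 1 and 3 were the highest and spleen 4 the lowest of the 13, so the Eµ-PRMT5 range contained the ranges of both other groups. The means were 4144 ± 2442 CPM (SD, n = 5), 3802 ± 1122 CPM (n = 4) and 3724 ± 1203 CPM (n = 4).

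H2-Ab1, the β chain that pairs with H2-Aa, was the member with the largest estimated change between Eµ-PRMT5 and Eµ-TCL1 once Eµ-PRMT5 spleen 4 was set aside. Its level was 3969.7, 2451, 3981, 333 and 2175 CPM in the Eµ-PRMT5 spleens and 1819.5, 2182, 1645 and 1184 CPM in the Eµ-TCL1 spleens. It was 1132, 2517, 1906 and 2606 CPM in the Eµ-PRMT5/TCL1 spleens. Without spleen 4 the Eµ-PRMT5 mean was 3144 ± 966 CPM (SD, n = 4) against 1708 ± 415 CPM in Eµ-TCL1, and the groups met between 2175 and 2182 CPM. H2-Eb1 followed the same order of spleens at the top, with 5003, 3179, 5264, 353 and 3009 CPM in Eµ-PRMT5 spleens. It stood at 2856, 3362, 2698 and 1678 CPM in the Eµ-TCL1 and 1729.9, 3592, 3243 and 4249 CPM in the Eµ-PRMT5/TCL1 spleens.

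Cd74, the invariant chain, was 20607, 14256, 20599.9, 4681 and 18895 CPM in the Eµ-PRMT5 spleens. It was 20266, 22982, 16494 and 12067 CPM in the Eµ-TCL1 spleens and 11594, 13749, 16458 and 26303 CPM in the Eµ-PRMT5/TCL1 spleens. All 3 ranges overlapped, and Eµ-PRMT5/TCL1 spleen 4 was the highest of the 13. Ciita, whose product drives the others, was detected at few UMIs per cell and ranged from 8.8 CPM in Eµ-PRMT5 spleen 4 to 81 CPM in Eµ-TCL1 spleen 2.

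The ranges of the H2-M and H2-O genes also overlapped between genotypes. H2-DMb2, a β chain of H2-M, was 706, 516, 626, 21.7 and 791 CPM in Eµ-PRMT5 spleens. It stood at 735, 1113, 471 and 388 CPM in the Eµ-TCL1 and 448, 638, 737 and 1296 CPM in the Eµ-PRMT5/TCL1 spleens. H2-Ob, the β chain of H2-O, was 380.0, 315, 354, 20.2 and 252 CPM, 175, 303, 319 and 208 CPM and 145, 226, 189 and 337 CPM in the same 3 groups. Outside Eµ-PRMT5 spleen 4, H2-DMa lay between 199 and 549 CPM, H2-DMb1 between 45.8 and 161 CPM, and H2-Oa between 52 and 235 CPM.

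**Figure D1:**
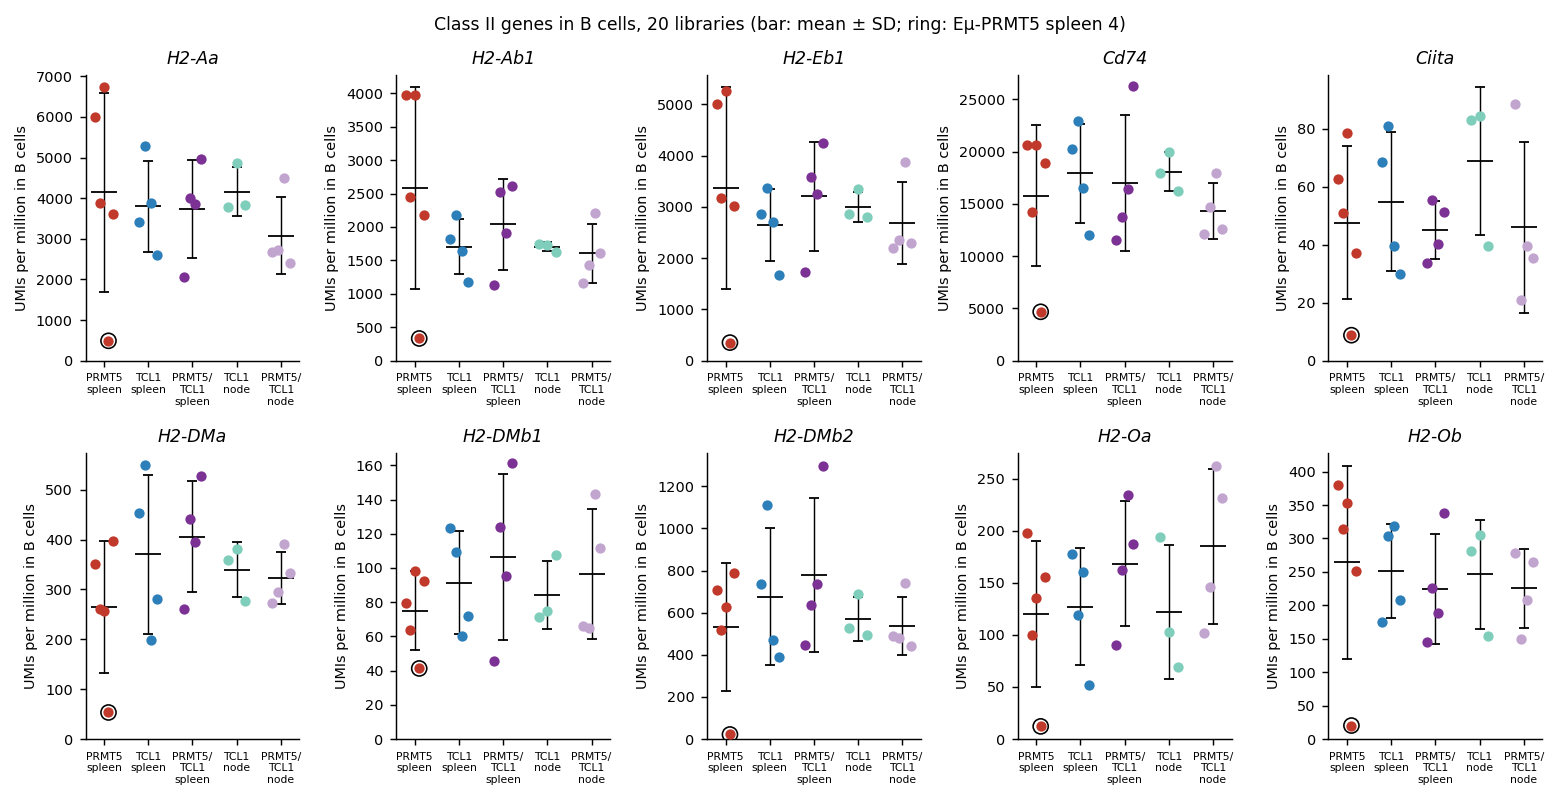
CPM of each class II gene in the B cells of the 20 libraries (y axis, CPM; points are libraries, lines the mean ± SD of a group). The ringed point, Eµ-PRMT5 spleen 4, is the lowest spleen in all 10 panels. For H2-Ab1 the other 4 Eµ-PRMT5 spleens, at 2175 CPM or more, meet the Eµ-TCL1 spleens, at 2182 CPM or less, and the gene was not called between them.

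No member passed the test between spleen genotypes. UMI counts summed over the B cells of each spleen were fitted with edgeR's quasi-likelihood test over 13 spleens and 11536 genes, and a gene was called at a Benjamini-Hochberg adjusted p under 0.05. In Eµ-PRMT5 against Eµ-TCL1 0 of 10 members were called, where 0.026% of all genes were called. In Eµ-PRMT5/TCL1 against Eµ-TCL1 0 of 10 were called, beside 0.00867% of all genes, and in Eµ-PRMT5/TCL1 against Eµ-PRMT5 0 of 10, beside 0.0% of all genes. In each comparison 0 members had an unadjusted p under 0.05 and DESeq2 called 0. The shares of all genes given here and below are edgeR's. DESeq2 called more genes than edgeR in each of these 3 comparisons. The last section gives its counts where they moved, for later comparisons too. The 3 comparisons share spleens.

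For Eµ-PRMT5 against Eµ-TCL1 the log2 change was -0.04 (SE 0.49, adjusted p = 0.98) for H2-Aa, 0.43 (SE 0.48, adjusted p = 0.68) for H2-Ab1 and -0.32 (SE 0.36, adjusted p = 0.68) for Cd74. The members' median log2 change was -0.28, beside 0.01 over all genes tested. Leaving out Eµ-PRMT5 spleen 4 moved H2-Ab1 to 0.70 (SE 0.31, adjusted p = 0.17) and H2-Eb1 to 0.45 (SE 0.31, adjusted p = 0.37), and 0 of 10 were called. H2-Aa turned to 0.23 (SE 0.31, adjusted p = 0.66) and Cd74 was at -0.11 (SE 0.28, adjusted p = 0.82) without that spleen, and the members' median was -0.04 beside -0.04 over all genes. For Eµ-PRMT5/TCL1 against Eµ-TCL1 the changes ran from -0.39 (Ciita) to 0.31 (H2-Oa), with a median of 0.04 beside 0.00 over all genes. For Eµ-PRMT5/TCL1 against Eµ-PRMT5 they ran from -0.28 (H2-Ab1) to 0.64 (H2-DMa), with a median of 0.04 beside -0.04 over all genes. Without Eµ-PRMT5 spleen 4 that H2-Ab1 change was -0.55 (SE 0.31, adjusted p = 0.36). The adjusted p of every member was at least 0.49 in these fits with all spleens, and a p above the threshold does not show that the levels were alike.

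Almost every B cell carried class II RNA in 12 of the 13 spleens. To compare cells of different depth, each was thinned to 1000 UMIs. H2-Aa was then found in a median of 93.3% of B cells per spleen (34.4 to 98.0%), against 1.30% of T cells (0.606 to 10%), which should lack it. Median depth per spleen was 4265.5 to 16741 UMIs in B cells and 2976.5 to 9713 UMIs in T cells, and no cell was under 1000 UMIs. H2-DMb2 was found in a median of 46.7% of B cells and 0.153% of T cells, and H2-Ob in 26.97% and 0.378%. Without thinning, H2-Aa was found in a median of 99.5% of B cells. In Eµ-PRMT5 spleen 4, 43.4% of thinned B cells had no UMI of H2-Aa, H2-Ab1 or H2-Eb1, against 0.311 to 6.97% in the other spleens. Its median B cell held 1 UMI of these 3 genes per 1000, while the medians of the other spleens lay between 4 and 17.

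No member was called between the B cells of nodes of different genotypes. H2-Aa was 3772, 4854 and 3839.7 CPM in Eµ-TCL1 nodes 1 to 3 and 2669, 2732, 4485 and 2416 CPM in Eµ-PRMT5/TCL1 nodes 1 to 4, all within the range of the spleens. H2-Ab1 was 1747, 1736 and 1625 CPM and 1161, 1433, 2209 and 1612 CPM in the same nodes, and Cd74 was 18004, 19993 and 16266 CPM and 12094, 14721, 17914 and 12609.9 CPM. Between the genotypes of nodes (7 libraries, edgeR) 0 of 10 members were called, beside 0.0% of all genes, with 0 at an unadjusted p under 0.05 and 0 by DESeq2. The widest changes were those of H2-Oa, 0.78 (SE 0.44, adjusted p = 0.82), and Ciita, -0.52 (SE 0.44, adjusted p = 0.9). H2-Oa was 194, 102 and 69.1 CPM in Eµ-TCL1 and 102, 146, 262 and 231 CPM in Eµ-PRMT5/TCL1 nodes, which overlap.

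Comparing node with spleen of the same mouse gave no shared direction. H2-Aa was higher in the node of 2 of 3 Eµ-TCL1 mice and of 2 of 4 Eµ-PRMT5/TCL1 mice. The fit of these 14 libraries held the mouse as a block and called 0 of 10 members in Eµ-TCL1 mice, beside 0.0% of all genes, and 0 of 10 in Eµ-PRMT5/TCL1 mice, also beside 0.0%. In Eµ-TCL1 mice changes of node against spleen ran from -0.37 (H2-DMa) to 0.17 (Ciita), and in Eµ-PRMT5/TCL1 mice from -0.36 (H2-DMb2) to 0.21 (H2-Oa). The difference of these changes between genotypes ran from -0.29 (H2-Eb1) to 0.33 (H2-DMb1), with 0 of 10 called beside 0.0%. In all 3, 0 members had an unadjusted p under 0.05 and DESeq2 called 0.

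**Figure D2:**
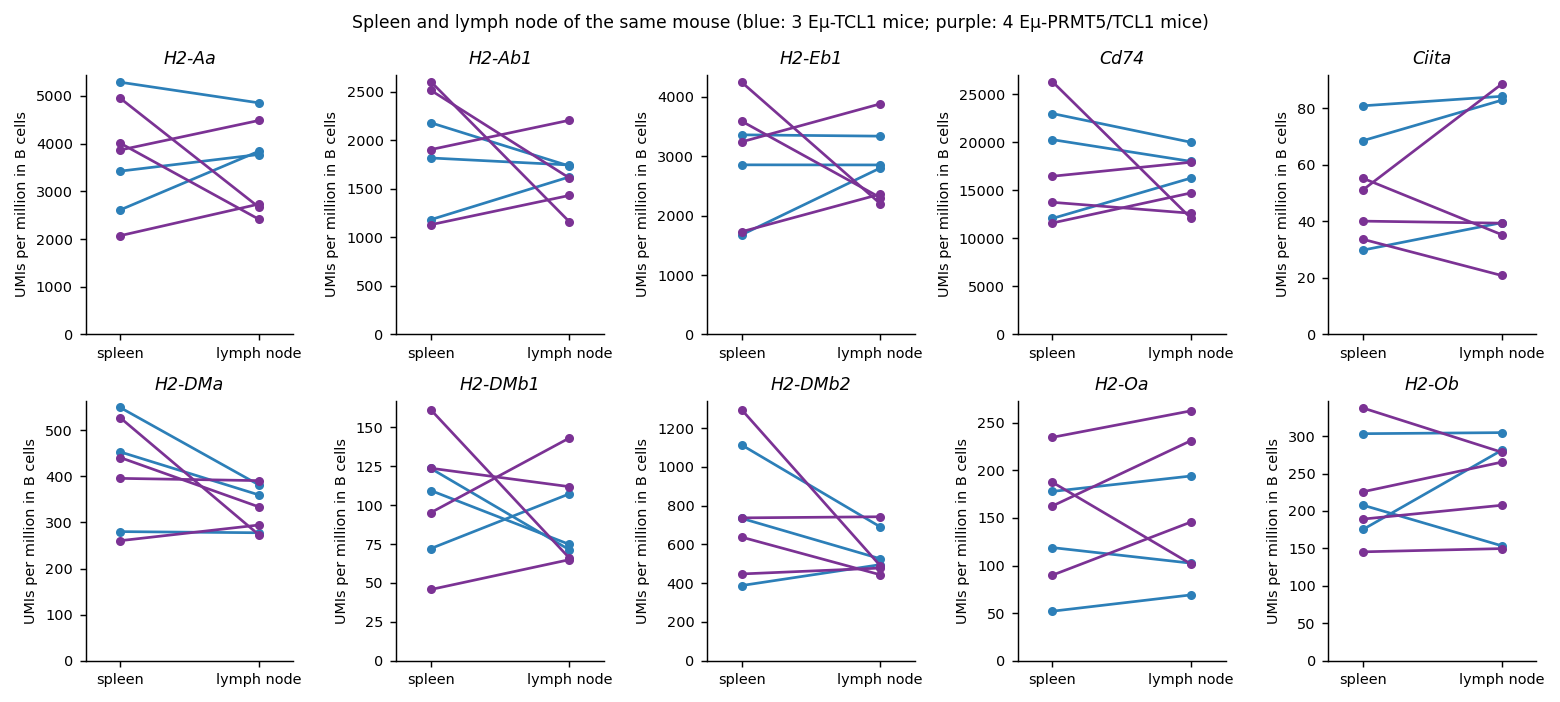
CPM of each class II gene in B cells (y axis, CPM) of the spleen and the lymph node of 7 mice, with a line per mouse. Lines rise for some mice and fall for others in every panel and the tissues' ranges overlap, with H2-Aa higher in the node of 2 of 3 Eµ-TCL1 and 2 of 4 Eµ-PRMT5/TCL1 mice.

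No member was called between B cells of the leading Ighv gene and the other B cells of the same spleen. A cell needed at least 3 Ighv UMIs. Cells were split by whether the library's leading Ighv gene gave at least 80% or at most 20% of their Ighv UMIs. The comparison used spleens where that gene gave at least 50% of all Ighv UMIs of the B cells and both parts held at least 20 cells, which left 4 (Eµ-PRMT5 spleen 5 and Eµ-PRMT5/TCL1 spleens 1, 3 and 4) and no Eµ-TCL1 spleen. Eµ-PRMT5 spleen 3 and Eµ-TCL1 spleen 3 had enough cells in both parts but leading genes at 31.1 and 38.0%, and were not used. In Eµ-PRMT5/TCL1 spleen 1 the parts held 887 and 345 of 4797 B cells. H2-Aa was 3325, 2198, 3856 and 4897 CPM in cells with the leading gene and 4957, 1721, 4705 and 6729 CPM in the others. The lower value was that of the leading gene in 3 of the 4 spleens. Changes ran from -0.28 (H2-Ab1) to 0.04 (Ciita and H2-DMa) on the log2 scale. With edgeR 0 of 10 members were called, beside 0.0806% of all genes, with 0 at an unadjusted p under 0.05 and 0 by DESeq2. An Ighv gene marks a clone only in part, since clones can share it.

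Members differed in how closely they followed one another over the 13 spleens. The Spearman correlation with the mean log2 CPM of H2-Aa, H2-Ab1, H2-Eb1 and Cd74, which these genes themselves make up, was 0.92, 0.97, 0.97 and 0.80 in that order. Of the others it was 0.81 for H2-Ob, 0.79 for Ciita, 0.67 for H2-DMb1, 0.66 for H2-DMb2, 0.52 for H2-Oa and 0.46 for H2-DMa. Without Eµ-PRMT5 spleen 4 the last 2 fell to 0.38 and 0.31. Of 5699 other genes with a mean of at least 20 CPM, those most like the 4-gene mean were Sptlc1 (0.94), Gch1 (0.93), Srsf5 (0.92), Tagap (0.91) and Sat1 (0.90), and without Eµ-PRMT5 spleen 4 these were 0.92, 0.91, 0.90, 0.89 and 0.87. These are descriptions over 13 spleens, whose values share library and composition.

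Members were called between cell classes, unlike between genotypes. Each class was compared with the B cells of the same spleens, so that the spleen was a block. In plasma cells 7 of 10 members fell, beside 42.3% of all genes called, with Cd74 and H2-Ob among those not called. In monocytes/macrophages 7 of 10 fell, beside 61.8% of all genes called, with H2-Ob, H2-DMb2 and H2-Oa at the largest changes. H2-Oa and H2-Ob entered that fit through the B cells alone. In conventional dendritic cells 2 fell and H2-DMb1 rose, beside 27.3%, with the calls on the class II chains depending on which spleens were used. In the last 2 classes the share of members called in either direction was near that of all genes, so the counts alone do not set the members apart. Changes of a class are relative to edgeR's TMM scaling, so they need not equal ratios of CPM, which include immunoglobulin. How much of that gap immunoglobulin makes up was not measured.

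**Figure D3:**
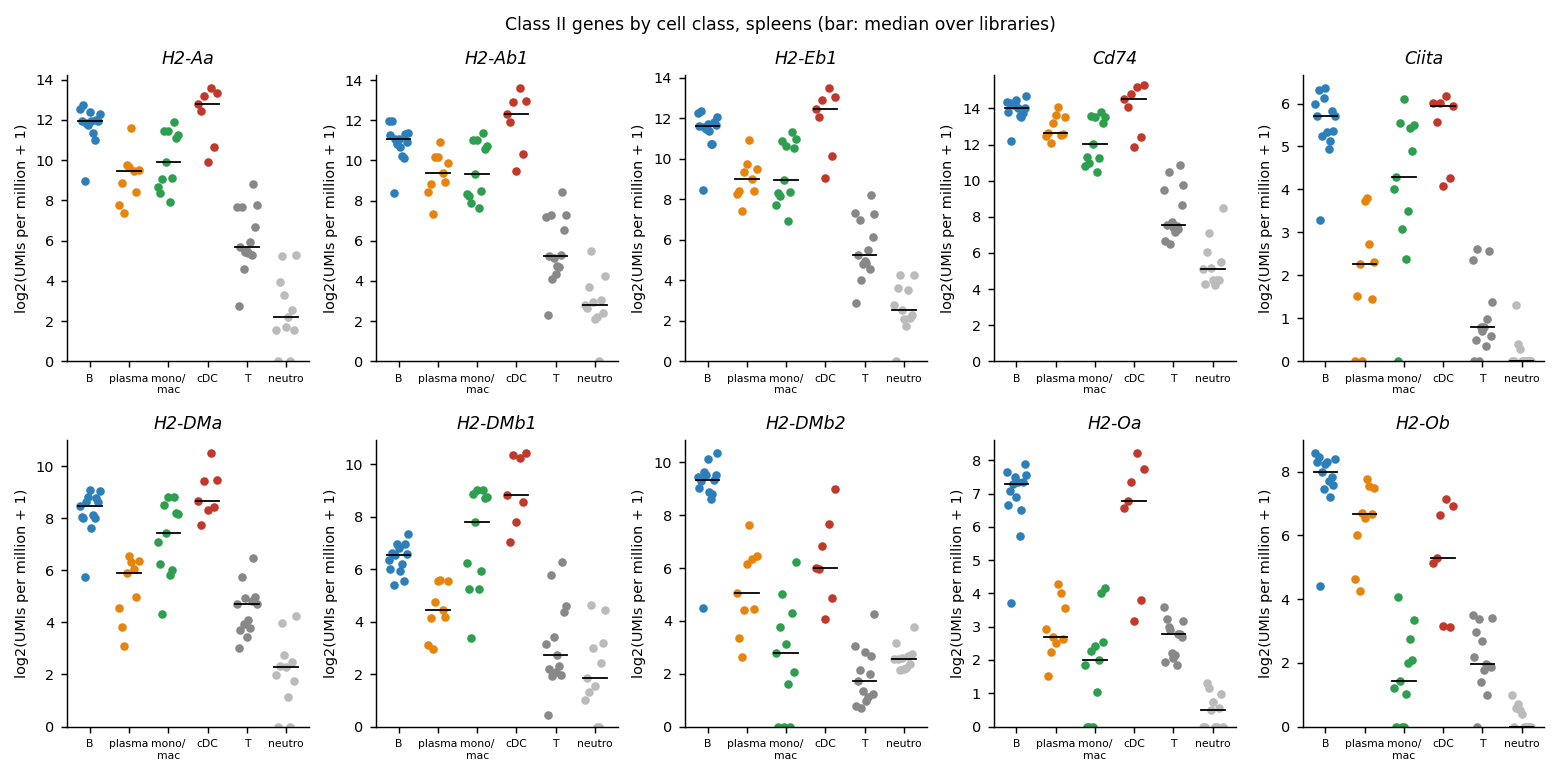
log2(CPM + 1) of each class II gene by cell class (y axis; points are spleens with at least 20 cells of the class, or 10 of the dendritic class, and lines are medians). T cells and neutrophils are lowest in most panels, and H2-DMb2 and H2-Ob are high in B cells and low in monocytes/macrophages while H2-DMb1 is not.

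Plasma cells were compared in the 9 spleens with at least 20 of them. H2-Aa was 219.8, 459, 163 and 864 CPM in plasma cells of Eµ-PRMT5 spleens 1, 2, 3 and 5. It was 792, 3092 and 713 CPM in those of Eµ-TCL1 spleens 1, 3 and 4, and 340.0 and 728 CPM in those of Eµ-PRMT5/TCL1 spleens 1 and 4. Each of the 9 was lower than the B cells of its own spleen, with Eµ-TCL1 spleen 3 the closest. The fall was -1.76 (SE 0.35, adjusted p = 0.0013) on the log2 scale. H2-Eb1 fell by 1.58 (SE 0.29, adjusted p = 0.00071).

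Ciita, H2-Oa, H2-DMb2 and H2-DMa had larger estimated falls than the chains, and the differences between genes were not tested. Ciita was at 0 at the lowest, 3.77 at the median and 12.8 at the highest CPM over the 9 spleens, against 29.9 to 78.4 CPM in the B cells of the same spleens, and its change was -2.65 (SE 0.31, adjusted p = 1.5e-05). H2-Oa changed by -3.29 (SE 0.25, adjusted p = 5.2e-07), H2-DMb2 by -3.07 (SE 0.37, adjusted p = 2.3e-05) and H2-DMa by -2.004 (SE 0.22, adjusted p = 8.4e-06). H2-DMb1 changed by -0.93 (SE 0.21, adjusted p = 0.0032). The H2-M genes are known targets of the Ciita protein, and H2-DMb1 had the smallest change of those called.

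The other 3 members were not called. Cd74 was 5650.1, 6305, 4349.7 and 9363 CPM in plasma cells of Eµ-PRMT5 spleens. Eµ-TCL1 spleens held it there at 12659, 17095 and 5959 CPM, and Eµ-PRMT5/TCL1 spleens at 6159.7 and 11612 CPM. Its change was -0.13 (SE 0.19, adjusted p = 0.64) after TMM scaling. In CPM, which includes immunoglobulin, plasma cells held less Cd74 than the B cells of their spleen in all but Eµ-TCL1 spleen 3. They held less H2-Ob in CPM in every spleen. H2-Ab1 changed by -0.69 (SE 0.34, adjusted p = 0.12) and H2-Ob by -0.57 (SE 0.32, adjusted p = 0.17). H2-Ob was 23.7, 63.5, 18.1 and 103 CPM, 92.8, 216 and 186 CPM and 101 and 180.2 CPM in the same groups, while its partner H2-Oa was at most 18.3 CPM. In all, 7 of 10 members fell and 0 rose, beside 42.3% of all genes called (2416 up and 2159 down), and the members' median log2 change was -1.67 beside -0.04 over all genes. DESeq2 also called H2-Ab1, at -0.74 (adjusted p = 0.047).

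The limit between B and plasma cells bears on these values. The plasma class held the 6 B cell markers at a sum of 82.9 to 993 CPM, against 233 to 3352 CPM in B cells, and the part of such cells in the plasma values was not tested. Among B cells, those with 5 to 19 Jchain UMIs (Jchain joins secreted antibody chains) held less H2-Aa than those with none in 9 of 10 libraries that had at least 20 such cells. The level was 358 against 2614 CPM in Eµ-PRMT5/TCL1 lymph node 4 and 1379.8 against 2092 CPM in Eµ-PRMT5/TCL1 spleen 1. Eµ-TCL1 spleen 3 was the exception, at 4246 against 3898 CPM. In the plasma cells of 5 lymph nodes 9 of 10 members fell, beside 25.6% of all genes called, Cd74 by 0.62 (adjusted p = 0.014) and H2-Ab1 by 1.07 (adjusted p = 0.0025) among them, and H2-Ob changed by -0.42 (SE 0.29, adjusted p = 0.32).

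Monocytes/macrophages were compared in 11 spleens. H2-Aa was 406, 334, 538, 2791 and 945 CPM in those of Eµ-PRMT5 spleens 1 to 5. It was 2762, 239.6 and 544 CPM in those of Eµ-TCL1 spleens 1, 3 and 4, and 3736, 2220.0 and 2414 CPM in those of Eµ-PRMT5/TCL1 spleens 2, 3 and 4. The values fell apart into 6 spleens under 1000 CPM and 5 at 2220.0 CPM or more, with Eµ-PRMT5 and Eµ-TCL1 spleens in both ranges. They exceeded the B cells of the same spleen only in Eµ-PRMT5 spleen 4. The change against B cells was -1.82 (SE 0.54, adjusted p = 0.0089) for H2-Aa, -1.45 (SE 0.54, adjusted p = 0.028) for H2-Ab1, -2.14 (SE 0.57, adjusted p = 0.004) for H2-Eb1 and -1.76 (SE 0.43, adjusted p = 0.0021) for Cd74.

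H2-O and 1 of the H2-M β chains were low in monocytes/macrophages. H2-Ob was 1.31, 0, 15.8, 1.7 and 0 CPM in those of Eµ-PRMT5 spleens. Eµ-TCL1 spleens held it there at 0, 1.04 and 2.96 CPM, and Eµ-PRMT5/TCL1 spleens at 5.79, 3.21 and 9.19 CPM. It changed by -5.96 (SE 0.38, adjusted p = 2.9e-09), H2-Oa by -4.53 (SE 0.42, adjusted p = 1.7e-07) and H2-DMb2 by -5.62 (SE 0.69, adjusted p = 4e-06). H2-Oa and H2-Ob did not pass the filter on low counts in this class alone. They entered the fit through the B cells, where they were high, so their falls are descriptions and no independent evidence. H2-DMb1 went the other way without being called, at 0.89 (SE 0.45, adjusted p = 0.096). Its level was 73.5, 37.1, 9.49, 466 and 222 CPM in those of Eµ-PRMT5 spleens. Eµ-TCL1 spleens held it there at 516, 36.5 and 59.3 CPM, and Eµ-PRMT5/TCL1 spleens at 522, 422 and 427 CPM, high in the same 5 spleens as H2-Aa.

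In all, 7 of 10 members fell in monocytes/macrophages and 0 rose, beside 61.8% of all genes called (25.5% higher and 36.3% lower), with a median of -1.79 beside -0.20 over all genes. H2-Oa and H2-Ob are among the 7, and their falls are descriptions, as given above. H2-DMa, at -0.93 (SE 0.40, adjusted p = 0.054), and Ciita, at -0.88 (SE 0.45, adjusted p = 0.097), were not called. Without Eµ-PRMT5 spleen 4 they were called as lower, at -1.20 (SE 0.28, adjusted p = 0.0015) and -1.20 (SE 0.35, adjusted p = 0.0077). That spleen was set apart for its low B cell values, so the values without it are no independent evidence. The call on H2-Ab1 was lost without any 1 of Eµ-PRMT5 spleens 1, 2, 3 and 5 or Eµ-TCL1 spleens 3 and 4, at -1.19 to -1.41. H2-DMa was also called when Eµ-TCL1 spleen 1, or spleen 2 or 4 of Eµ-PRMT5/TCL1, was left out (-1.04 to -1.06), and H2-DMb1 was called as higher without Eµ-PRMT5 spleen 3 (1.14). B cell markers in this class summed to 0 to 66.4 CPM. In 3 lymph nodes 4 of 10 members were called, beside 25.8% of all genes, with H2-Oa (-5.24), H2-DMb2 (-5.65) and H2-Ob (-5.32) lower and H2-DMb1 higher by 1.40. In that class the nodes held H2-Oa at 0 to 17.4 CPM, H2-DMb2 at 5.9 to 17.4 CPM and H2-Ob at 3.87 to 8.69 CPM. At so few counts these genes stand in the fit through the B cells, so their falls are descriptions and no independent evidence.

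Within this class, cells with at least 3 UMIs of C1q genes, which mark tissue macrophages, held more H2-Aa. Enough of both kinds were found in Eµ-PRMT5 spleen 4, where H2-Aa was 3695 CPM in 156 such cells and 1928 CPM in 157 with under 3. In the other spleens with at least 12 such cells it was 4075 against 2446 CPM (Eµ-TCL1 spleen 1), 1319 against 141 CPM (Eµ-TCL1 spleen 3) and 6286 against 3536 CPM (Eµ-PRMT5/TCL1 spleen 2). The cells with at least 3 were higher in all 4, a difference that was not tested. Cells with under 3 C1q UMIs still spanned 141 to 3536 CPM over the spleens. Eµ-PRMT5 spleens 1, 2, 3 and 5, all low in H2-Aa, held 0 cells with at least 3, and the part of this in their levels was not tested.

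Conventional dendritic cells, the main presenters to naive T cells, were few, and 7 spleens had at least 10. H2-Aa was 6967, 5554 and 9202 CPM in those of Eµ-PRMT5 spleens 1, 3 and 5. It was 959.5 and 12173 CPM in those of Eµ-TCL1 spleens 1 and 2 and 1611 and 10471 CPM in those of Eµ-PRMT5/TCL1 spleens 2 and 4. Eµ-TCL1 spleen 1 and Eµ-PRMT5/TCL1 spleen 2 were low, and in both the 6 dendritic check markers summed to 1815 and 1837 CPM, within the range of monocytes/macrophages (1640 to 3885 CPM), against at least 7670 CPM in the other 5. Cst3 weighed most in these sums, at a median of 6870 CPM in dendritic cells with Irf8 next at 462 CPM. Monocytes/macrophages also held Cst3, at 1067 to 2703 CPM. For the members called without those 2 spleens, changes against B cells are given with and without them, as is the H2-DMb2 share. The other members are given over 7 spleens alone. The 2 spleens were set aside after their class II levels had been seen, so the values without them are no independent evidence.

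Over the 7 spleens the class II chains of dendritic cells were not called against B cells, while 3 of the H2-M and H2-O genes were. H2-Aa changed by -0.05 (SE 0.36, adjusted p = 0.94), H2-Ab1 by 0.43 (SE 0.42, adjusted p = 0.48), H2-Eb1 by -0.10 and Cd74 by -0.37 (SE 0.33, adjusted p = 0.45). H2-DMb1 rose by 2.17 (SE 0.38, adjusted p = 0.00066). It was 457, 131 and 1302 CPM in those of Eµ-PRMT5 spleens. Eµ-TCL1 spleens held it there at 224 and 1205 CPM, and Eµ-PRMT5/TCL1 spleens at 379 and 1358 CPM, and each was above the B cells of its spleen. H2-DMb2 changed by -3.35 (SE 0.37, adjusted p = 1.3e-05), H2-Ob by -2.76 (SE 0.42, adjusted p = 0.00018) and H2-Oa by -0.97 (SE 0.51, adjusted p = 0.18). Ciita was at -0.63 and H2-DMa at 0.10, neither called.

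In all, 2 of 10 members fell in conventional dendritic cells and 1 rose, beside 27.3% of all genes called, with a median of -0.23 beside -0.21 over all genes. Over all genes 1226 rose and 1647 fell, while DESeq2 put 1546 higher and 1156 lower and called the same number of members, 3. Without Eµ-TCL1 spleen 1 and Eµ-PRMT5/TCL1 spleen 2, 4 members rose and 2 fell, beside 20% of all genes called in that fit. The chains were then called as higher, H2-Aa at 0.67 (SE 0.23, adjusted p = 0.045), H2-Ab1 at 1.21 (SE 0.30, adjusted p = 0.0068) and H2-Eb1 at 0.75 (SE 0.26, adjusted p = 0.046). The other calls remained, with H2-DMb1 at 2.73 (SE 0.37, adjusted p = 3e-05), H2-DMb2 at -2.67 (SE 0.28, adjusted p = 1.7e-06) and H2-Ob at -2.06 (SE 0.33, adjusted p = 0.00017). Plasmacytoid dendritic cells reached 10 cells in 1 spleen and 1 lymph node, with H2-Aa at 2554 CPM in 13 cells of Eµ-PRMT5 spleen 1 and 5240.1 CPM in 19 cells of Eµ-PRMT5/TCL1 lymph node 2, and could not be fitted.

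H2-DMb1 and H2-DMb2 encode alternative β chains of H2-M, and their balance differed by class. In B cells H2-DMb2 gave a median of 88.7% of the UMIs of both genes over 13 spleens, with 12 of them between 83.8 and 91.1%. Eµ-PRMT5 spleen 4 was the exception at 34.4% (95% Wilson interval 31.4 to 37.6%, 305 of 886 UMIs). Plasma cells gave a median of 65.6% (44 to 81%, 7 spleens). Monocytes/macrophages gave 3.46% (0 to 14.9%, 9 spleens) and conventional dendritic cells 12.2% (6.67 to 32%, 7 spleens), or 14.4% without the 2 spleens of low dendritic markers. Outside Eµ-PRMT5 spleen 4 the B cells did not overlap with either myeloid class.

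In the empty droplets of the 13 spleens H2-DMb2 gave a median of 85.5% (53.4 to 91.5%). The droplets were lower than the B cells in 9 of 13 spleens, with intervals apart in 5, the widest gap being 66.3% against 83.8% in Eµ-PRMT5/TCL1 spleen 2. They were higher with intervals apart in 1, Eµ-PRMT5 spleen 4. In Eµ-PRMT5 spleen 4 the B cell share of 34.4% lay between that of its monocytes/macrophages (6.33%) and that of its empty droplets (53.4%). The genes are near copies, so some reads of H2-DMb1 may match both. Of the 50-base stretches in the last 500 bases of H2-DMb1, 92 of 451 (20.4%) also occur in H2-DMb2 transcripts, while 0 of 457 of H2-DMb2 occur in H2-DMb1. How reads from these stretches were counted was not measured, and their part in the balance was not tested.

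**Figure D4:**
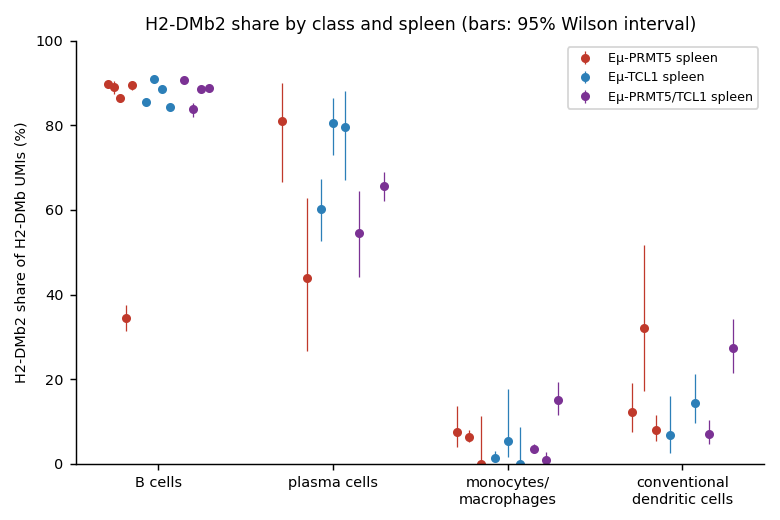
H2-DMb2 as a percentage of H2-DMb1 and H2-DMb2 UMIs (y axis) by cell class, 1 point per spleen with at least 20 such UMIs and 20 cells (10 for dendritic cells), with 95% Wilson intervals that cover counting error alone. B cells lie above 80% except in Eµ-PRMT5 spleen 4 at 34.4%, and both myeloid classes lie under 40%.

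**Figure D5:**
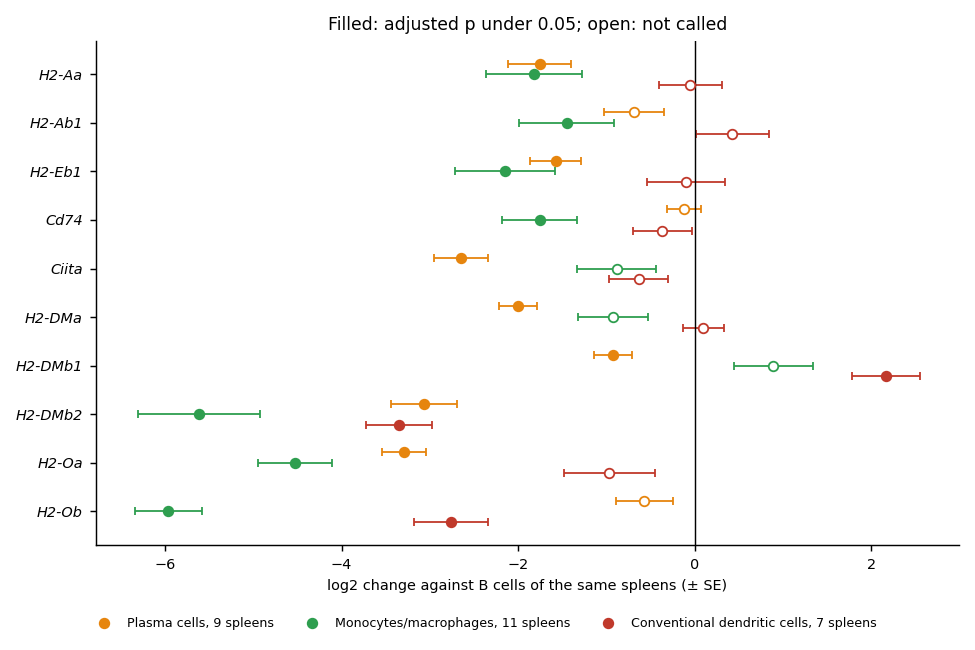
Log2 change of each class II gene against the B cells of the same spleens (x axis, points ± SE) in plasma cells, monocytes/macrophages and conventional dendritic cells. Filled points were called at an adjusted p under 0.05, and H2-DMb1 is the one gene called as higher, in dendritic cells.

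T cells and neutrophils, which should not present by class II in mice, gave the background. The T cell call excluded no myeloid marker, and T cells held Lyz2 at 1.52 to 2037 CPM over 13 spleens. H2-DMb2 gave a median of 16.2% of H2-DMb1 and H2-DMb2 UMIs in T cells over 10 spleens. In Eµ-PRMT5/TCL1 spleen 2 it gave 6.65%. The part of myeloid RNA in the T cell values was not tested. H2-Aa in T cells was 5.63 at the lowest, 50.7 at the median and 445 at the highest CPM over 13 spleens and in neutrophils 0 at the lowest, 3.59 at the median and 38.4 at the highest CPM over 11. All 10 members fell in T cells against B cells, beside 59.6% of all genes, from -3.39 (H2-DMb1) to -7.95 (H2-DMb2). All 10 fell in neutrophils, beside 74.6% of all genes, from -3.29 (H2-DMb1) to -8.52 (H2-Ob). Ciita and H2-Ob stood at a median of 0 CPM there and H2-Oa at 0.423 CPM. In T cells Ciita stood at a median of 0.727 CPM. The place of such members in these fits rests on the B cells, so their falls are no independent evidence and the sizes are not exact. Which other members would pass the filter on low counts in either class alone was not tested, so all 10 falls are descriptions. Empty droplets held H2-Aa at 407 to 3668 CPM. The median H2-Oa and H2-Ob levels of monocytes/macrophages, 2.96 and 1.7 CPM, lay under those of the T cells, 5.9 and 2.87 CPM, while their highest spleens, at 16.8 and 15.8 CPM, lay above the highest T cell values of 11.1 and 10.4 CPM. Over all genes the median log2 change in neutrophils was -0.28, and -0.45 by DESeq2.

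Genotype was also compared within the other classes, where few spleens had enough cells. In monocytes/macrophages 8 members passed the filter on low counts, and H2-Oa and H2-Ob did not. None of the 8 was called in any of the 3 genotype comparisons (edgeR, 11 spleens, beside 0.0% of all genes each), DESeq2 called 0, and 1 had an unadjusted p under 0.05, H2-DMb2 in Eµ-PRMT5/TCL1 against Eµ-TCL1 at 2.94 (SE 1.12, adjusted p = 1). The 3 Eµ-PRMT5/TCL1 spleens were all high in H2-Aa, and the change against Eµ-PRMT5 was 1.34 (SE 0.80, adjusted p = 1). Without Eµ-PRMT5 spleen 4 it was 2.36 (SE 0.68, adjusted p = 0.48), and that of H2-Eb1 was 2.66 (SE 0.67, adjusted p = 0.36). The remaining Eµ-PRMT5 spleens held 0 cells with at least 3 C1q UMIs, against 15, 4 and 3 in Eµ-PRMT5/TCL1 spleens 2, 3 and 4. The part of this in the change was not tested.

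In plasma cells 0 of 10 members were called in the 3 genotype comparisons (9 spleens, beside 0.0% of all genes each). For Eµ-PRMT5 against Eµ-TCL1 3 had an unadjusted p under 0.05, H2-DMb2 at -2.21 (SE 0.59, adjusted p = 0.35), H2-DMa at -1.18 (SE 0.48, adjusted p = 0.42) and Ciita at -1.98 (SE 0.89, adjusted p = 0.47). H2-DMb2 in plasma cells was 32.2, 9.34, 5.27 and 20.2 CPM for Eµ-PRMT5 against 69.8, 198 and 80.6 CPM for Eµ-TCL1, which do not overlap. DESeq2 called it and no other member in the 3 comparisons (adjusted p = 0.04), and its counts over all genes are in the last section. The share of all genes without overlap, or with an unadjusted p under 0.05, in these plasma cells is not given here. These values alone therefore do not set H2-DMb2 apart. The sum of B cell markers in these cells was 156, 149, 82.9 and 559.5 CPM for Eµ-PRMT5 against 463, 564 and 413 CPM for Eµ-TCL1, and its part in the difference was not tested. In conventional dendritic cells 0 of 10 were called in each comparison (7 spleens, beside 0.0% of all genes), 0 had an unadjusted p under 0.05 and DESeq2 called 0.

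The pathway around the members was read from a list of 30 genes found in the files. Between genotypes and tissues of B cells 0 of the 30 rose and 0 fell in every comparison. In plasma cells 10 rose and 8 fell (60% called, beside 42.3% of all genes). Of the 7 peptide-processing genes, mostly lysosomal proteases that cut the invariant chain or its peptides, 5 rose and 1 fell. Over all genes 22.3% rose and 19.95% fell. Ctsb rose by 2.25, Ctsl by 1.99 and Ctss by 1.52, and Ctsh fell, at -2.09. The costimulatory genes Cd86 (-2.76) and Cd40 (-1.93) and the ubiquitin ligase March1 (-2.74), which removes class II from the surface, fell. The class I chain H2-K1 rose by 0.62. Rfx5, a DNA-binding partner of Ciita, was at -0.35 (adjusted p = 0.35), and 1 of the 7 enhanceosome genes fell.

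In monocytes/macrophages 9 of the 30 rose and 7 fell (53.3% called, under the 61.8% of all genes). Of the 7 peptide-processing genes 6 rose and 0 fell, where 25.5% of all genes rose, among them Ctsl (4.70), Ctsb (3.13), Ctsd (2.38) and Ctss (2.20). H2-Eb2, a further class II β chain gene, fell by 4.37, and Cd83, which holds class II at the surface, fell by 4.05. Whether these genes would pass the filter on low counts in this class alone was not tested. Rfx5 was lower at -0.81 (adjusted p = 0.027) and H2-K1 at -0.38 (adjusted p = 0.046). In conventional dendritic cells 23.3% of the 30 were called, beside 27.3% of all genes. Of these 2 rose, Ctsl (2.48) and Ctsb (1.38), and 5 fell, H2-Eb2 (-3.03), Cd83 (-1.67), Nfyb (-1.01), Cd40 (-0.94) and H2-K1 (-0.66). H2-Eb2 was at a median of 8.47 CPM (0 to 38.5 CPM) in the dendritic cells of the 7 spleens. At so few counts its call rests on the B cells, so its fall is a description and no independent evidence. Rfx5 was at -1.05 (adjusted p = 0.06) and Ctss at 0.34 (adjusted p = 0.28) there. Without the 2 spleens of low dendritic markers 6 of the 30 rose and 3 fell (30%, beside 20% of all genes). Cd83 was then at -0.82 and H2-Eb2 at -2.27, Cd40 and H2-K1 were no longer called (adjusted p = 0.069 and 0.16), and Ctss was called at 0.73. The immunoproteasome genes Psmb9 (1.09) and Psmb8 (0.94) and the peptide transporter gene Tap1 (0.95) rose, 3 genes named after their values were seen. In T cells 6 rose and 14 fell (66.7%, beside 59.6% of all genes) and in neutrophils 6 rose and 13 fell (63.3%, beside 74.6%). The largest changes in T cells were those of H2-Eb2 (-7.66), Cd83 (-5.89), Cd86 (-5.21), Cd40 (-5.07), March1 (-4.99) and Lgmn (-4.76), with Rfx5 at -0.49, Ctss at -1.72 and H2-K1 at 0.94, all called. In neutrophils H2-Eb2 had 0 UMIs in 11 spleens. Cd83 (-9.10), Cd40 (-7.44), Lgmn (-6.68), Cd86 (-4.92) and Ctss (-3.83) fell there, with Rfx5 at -1.45 and H2-K1 at -0.77, both called. H2-Eb2 had 18 UMIs over the T cells of 13 spleens, and in neutrophils Cd83 had 13, Cd40 had 6 and Lgmn had 19. Such genes stand in these fits through the B cells, so their falls are no independent evidence and the sizes are not exact. Which of the other genes would pass the filter on low counts in either class alone was not tested. H2-Ea and Ifi30 were not analysed here.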

How the data were processed

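Single-cell RNA was captured with 10x Genomics 3′ v2 chemistry. The authors deposited 1 matrix of UMI counts per library, not normalized, with gene identifiers. The submitters' notes name Cell Ranger 2.0.1, Seurat 2.2.1 and GRCm38, while the matrix headers give software version 3.1.0. Of 31053 identifiers, 31011 were matched to GENCODE vM21. The counts hold no cell labels, so cells and classes were called anew.

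A barcode was kept with more UMIs than the 99th percentile of the top 3000 barcodes divided by 10, provided it held 200 genes or more and no more than 10% of its UMIs were mitochondrial. Doublets were scored with scanpy 1.11.5. The automatic threshold marked unequal numbers, 0 to 294 cells per library, so the highest scores were removed at 0.8% per 1000 cells. B cells had at least 3 UMIs of Cd79a and Cd79b, none of CD3 genes and under 20 of Jchain, and the other classes were called from raw counts of their own markers. Droplets with 10 to 100 UMIs were taken as empty. For shares of cells, each cell was thinned to 1000 UMIs.

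UMI counts were summed per library and class, for at least 20 cells. Only 1 spleen had 20 conventional dendritic cells, so 10 were required of that class, a departure from the planned minimum. Sums were tested with edgeR 4.0.16 in R 4.3.3 (filterByExpr, TMM, quasi-likelihood test, Benjamini-Hochberg adjustment over all genes tested, threshold 0.05), and DESeq2 1.42.0 was the alternative. Classes were compared with the spleen as a block and tissues with the mouse as a block. The scripts were tested on simulated data. Same-mouse pairs of B cell profiles deviated together (r = 0.288 to 0.636, 7 pairs, from the mouse given in the labels), while libraries sharing a replicate number did not all do so (-0.0677 to 0.184, 15 pairs).

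All 10 members were to be named in each comparison, and where several were alike some are given as a count or range alone. Of a list of 30 pathway genes, those called were named, at most 6 per comparison by the size of the log2 change, with Rfx5, Ctss and H2-K1 always. The likeness list took the 5 genes of highest Spearman rho with a mean of at least 20 CPM. The members and lists were chosen with earlier results of these data known. Python 3.11.15, numpy 2.4.6 and scipy 1.17.1 were used. Intervals cover counting error alone.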

Additional observations from a re-analysis of the deposited data

Results flagged for a closer look

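Values that stood far from the other libraries of their group were sought with Dixon's test at the 95% level in groups of 4 or 5, on log2 CPM. Of 100 such tests 12 were positive (15 on CPM), and chance alone gives about 1 in 20.

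In the B cells of Eµ-PRMT5 spleen 4, 8 members were far below the other 4 spleens of the group. The levels were 490.0 CPM for H2-Aa (rounded), 333 CPM for H2-Ab1, 353 CPM for H2-Eb1 and 4681 CPM for Cd74. They were 53.2 CPM for H2-DMa, 21.7 CPM for H2-DMb2, 12.1 CPM for H2-Oa and 20.2 CPM for H2-Ob. The members of 1 library are not independent of one another, so these are 1 event rather than 8. B cell markers were also lowest in that library, and their part in the values was not tested.

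In the B cells of Eµ-PRMT5/TCL1 lymph node 3, H2-Eb1 was 3883 CPM, the highest of 4. In T cells, H2-DMa was 87.4 CPM in Eµ-PRMT5/TCL1 spleen 2, while H2-Aa was 111 CPM and Cd74 was 368 CPM in lymph node 2 of that genotype, each the highest of 4.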

How the results depend on the processing

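Over 22 comparisons, all but 3 of 325 counts of called members under the alternatives stayed within 1.5 times the reported count. The exceptions were monocytes/macrophages against B cells in lymph nodes (4 in place of 7), Eµ-PRMT5 against Eµ-TCL1 plasma cells by DESeq2 (1 in place of 0), and conventional dendritic cells without the 2 spleens of lowest dendritic marker sums (6 in place of 3), which was chosen after seeing the data. Leaving out 1 library gave 6 to 9 called members in monocytes/macrophages. Of 720 values of members called in some setting, 679 kept their direction and side of the threshold, 10 lost the call, 18 gained it and 13 changed direction. The 13 were H2-Aa and H2-Eb1 in dendritic cells, which lay near 0 over 7 spleens. H2-Aa was 0.06 by DESeq2 and with RLE size factors, 0.00 without immunoglobulin genes and 0.67 without the 2 spleens, and 0.08, 0.33 and 0.26 without Eµ-PRMT5 spleen 3, Eµ-TCL1 spleen 1 and Eµ-PRMT5/TCL1 spleen 2. H2-Eb1 was 0.01 by DESeq2 and RLE, 0.75 without the 2 spleens, and 0.04, 0.35 and 0.28 without the same single spleens. Over all single spleens left out H2-Aa ran from -0.24 to 0.33 and H2-Eb1 from -0.37 to 0.35. The cause was not tested, and in the 2-spleen setting fewer spleens enter.

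A replicate block gave 0 called members in each genotype comparison, as without it, and leaving out the block of the mouse gave 0 between tissues. The shared numbers did not pair the samples. Over all genes the block called 26 in place of 3 (Eµ-PRMT5 against Eµ-TCL1 B cells), 0 in place of 1 and 4 in place of 0 in the other B cell comparisons of spleens, and 68 and 29 in place of 0 in plasma cells.

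Counts over all genes were less stable, and 72 of 325 moved by over 1.5 times. In Eµ-PRMT5 against Eµ-TCL1 B cells DESeq2 called 675 in place of 3, the fit of 20 libraries 47, and leaving out 1 library 1 to 343. In Eµ-PRMT5/TCL1 against Eµ-TCL1 it was 20 by DESeq2, 2 with 20 libraries and as low as 0 without 1 library or with Xist as covariate, in place of 1. Against Eµ-PRMT5 it was 108 by DESeq2, 1 with 20 libraries and up to 3 without 1 library, in place of 0. In place of 0, DESeq2 called 64 between nodes (11 without Eµ-TCL1 node 1), 12 and 58 between tissues (21 and 28 without a filter, 2 in Eµ-PRMT5/TCL1 with strict B cells, up to 3 without 1 mouse) and 1 in their difference (5 without a filter). Between genotypes DESeq2 called 1 each in monocytes/macrophages (2 without Eµ-PRMT5 spleen 4), 53, 8 and 35 in plasma cells, and 12 and 1 in dendritic cells, where leaving out Eµ-PRMT5/TCL1 spleen 2 gave 78 and 51. Nodes gave 2751 in place of 4575 for plasma cells and 2214 in place of 6895 for monocytes/macrophages. For the leading Ighv gene it was 14 by DESeq2, 13 in nodes, 0 without immunoglobulin genes and 1 without Eµ-PRMT5 spleen 5, in place of 8. SEs of the members against B cells ran from 0.19 to 0.37 in plasma cells, 0.38 to 0.69 in monocytes/macrophages and 0.23 to 0.51 in dendritic cells, which limits the changes that could be called.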
